A study of Rattus norvegicus with 50 samples.

Results

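The genes described here are the subunits of the receptors for glutamate and GABA, chosen by gene name: 42 subunits were listed, and each row of the array table annotated with 1 of these symbols was taken. Of these, 41 were found, each with 1 transcript cluster (the set of probes summarized to 1 value per gene), out of 15049 clusters with a single gene symbol. Gria2 was not analysed here. The rats were male Wistar rats aged 3.5 months in 3 groups, with 1 array per animal and tissue, in the hippocampus and in peripheral blood mononuclear cells (PBMC). MONW-Lep rats (labelled LEP, 9 arrays per tissue) received murine leptin by mouth from day 1 to day 20 of life and, after weaning, chow in which fat supplied 60% of the energy. MONW rats (labelled HF, 8 arrays), a model of the metabolically obese, normal-weight state, received the vehicle Captisol and then the same chow. NW rats (labelled CTRL, 8 arrays) received the vehicle and then chow with 10% of its energy as fat. Feeding lasted 11 weeks, and the 60% chow was portioned to match the energy intake of NW rats. Pups of several litters were assigned at random, and the labels do not name the litter of an animal.

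Glutamate is the main excitatory and GABA the main inhibitory transmitter of the brain. Glutamate opens ionotropic channels of the AMPA, kainate and NMDA families, built from subunits that set the speed and calcium permeability of the current, and acts more slowly through metabotropic (mGlu) receptors, which couple to G proteins. GABA opens chloride channels of the GABA-A type, usually made of alpha and beta subunits with a gamma or delta subunit, and signals through the GABA-B receptor, an obligate dimer of Gabbr1 and Gabbr2. In the hippocampus AMPA and NMDA receptors are known for their part in synaptic plasticity, and alpha5-containing GABA-A receptors for tonic inhibition of pyramidal cells.

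Values are log2 intensities after RMA (robust multi-array averaging), so a difference of 1 is a 2-fold change, and levels of different genes were not set against each other. A subunit was counted as above background on an array where it exceeded the 95th percentile of that array's 1153 negative control rows. This threshold was 7.96 to 8.58 (median 8.36) on hippocampal arrays and 8.59 to 9.51 (median 8.98) on PBMC arrays. The tissue labels were checked against marker genes: 8 of 10 markers of hippocampal neurons were above background on at least 50% of hippocampal arrays against 1 of 10 on PBMC arrays, and for markers of blood mononuclear cells the counts were 0 of 9 in the hippocampus and 8 of 9 in PBMC. The hippocampal array of MONW replicate 7 stood apart from the others, as described below, and the comparisons between groups, the background counts and the tissue differences are given with and without it. Tissue was measured in bulk, so fewer cells of a type and less RNA per cell cannot be told apart.

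In the hippocampus 23 of the 41 subunits were above background on at least 50% of the 25 arrays (26% of all 15049 genes were), and 19 of these on every array. This count rests on the threshold: it was 25 with the 90th percentile of the negative controls (Grin2c and Gabrg3 in addition) and 5 with the 99th (Gria1, Gria3, Grin2b, Gabra2 and Gabbr1), the one threshold of the 3 that changed it over 1.5 times. Without MONW replicate 7, on which Gabra5 and Grik4 were below the threshold, the counts were 23 and, on every one of 24 arrays, 21. Another 17 subunits were above background on no hippocampal array, and the remaining one, Gabrg3, on 5. In PBMC no subunit reached this level on 50% of the arrays (14.7% of all genes did). Gabbr1 was above background on 3 of the 25 PBMC arrays and each of the other 40 subunits on 0. A subunit below this threshold may still be expressed at a level the arrays do not separate from background.

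By family, all 3 measured AMPA subunits were above background in the hippocampus, as was the delta-type glutamate receptor Grid1 (on 19 arrays). So were 3 of 5 kainate subunits (Grik2, Grik4 and Grik5) and 3 of 7 NMDA subunits (Grin1, Grin2a and Grin2b). Of the mGlu receptors these were the group I receptor Grm5, both group II receptors (Grm2, on 18 arrays, and Grm3) and 1 of 4 group III receptors (Grm7). Among GABA-A subunits these were 4 of 5 alpha subunits (Gabra2, Gabra3, Gabra4 and Gabra5), both beta subunits analysed (Gabrb1 and Gabrb2) and 1 of 2 gamma subunits (Gabrg1). Both GABA-B subunits were above background on every hippocampal array. The 4 delta, epsilon, theta and pi subunits (Gabrd, Gabre, Gabrq and Gabrp) and the 3 rho subunits (Gabrr1, Gabrr2 and Gabrr3, best known from the retina) were above background on none, as were Gabra6, known for its restriction to cerebellar granule cells, the NMDA subunits Grin2c, Grin2d, Grin3a and Grin3b, the kainate subunits Grik1 and Grik3, and the group III receptors Grm4, Grm6 and Grm8.

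**Figure D1:**
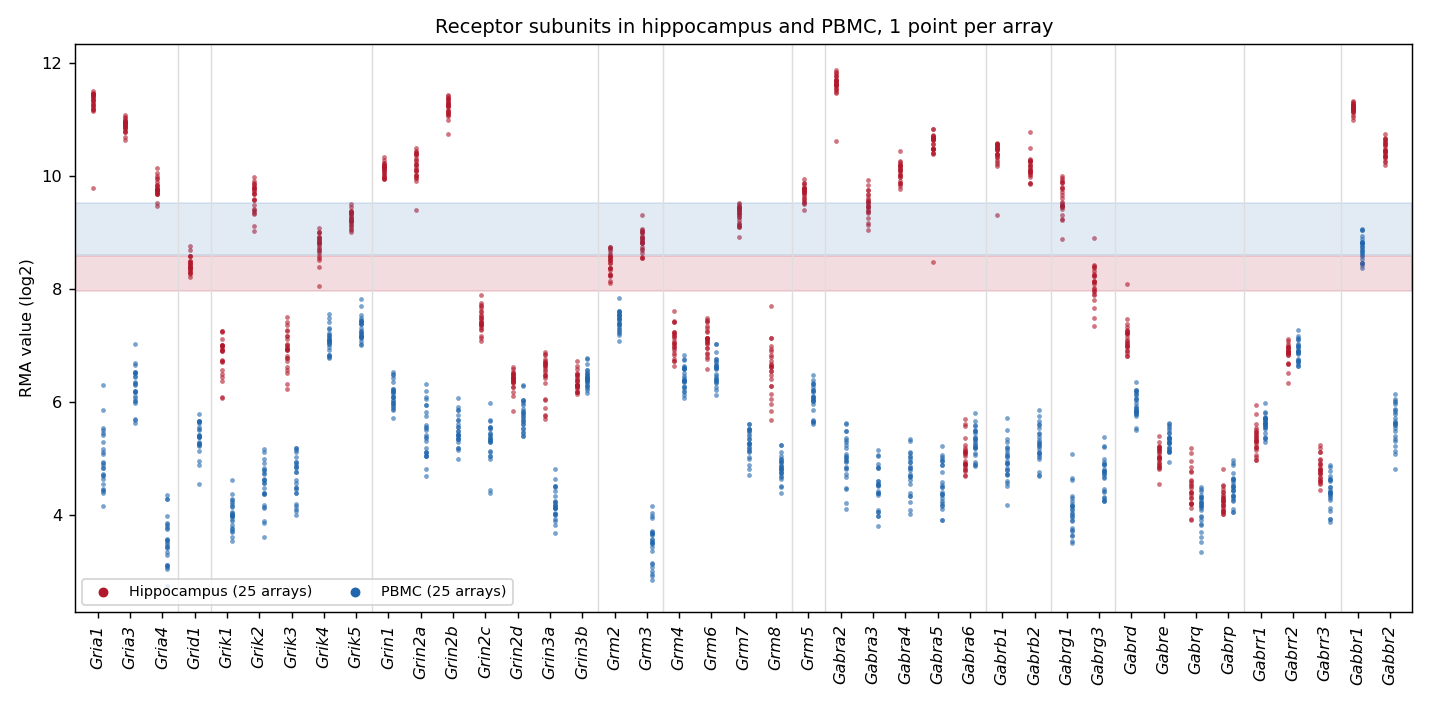
Log2 RMA value (vertical axis) of each of the 41 subunits, ordered by family, with 1 point per array: hippocampus left and red, PBMC right and blue, 25 arrays each. Shaded bands span the background thresholds of the arrays of each tissue, 7.96 to 8.58 in the hippocampus (red) and 8.59 to 9.51 in PBMC (blue); 30 subunits show no overlap between the tissues, and levels are to be compared within a gene only.

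Hippocampus and PBMC were compared to show which subunits separate brain from blood. In the limma fit over all 50 arrays, 35 of the 41 subunits were higher in the hippocampus at a Benjamini-Hochberg adjusted p under 0.05 (36.5% of all genes were), and 4 were lower (47.8% of all genes were), 39 of 41 in either direction (84.3% of all genes). For 30 subunits every hippocampal array lay above every PBMC array (20.6% of all genes). Without MONW replicate 7 the counts were also 35 and 4, and no subunit's difference moved by more than 0.092 (Gabra5). Since 40 subunits were above background on no PBMC array, their PBMC level is known only as a bound. A fold is therefore given as "at least", with each PBMC array set at the higher of its own value and its background threshold, and none is given where the hippocampal mean did not exceed that bound or where the subunit was above background on no array of either tissue. Of the 41 subunits, 18 had such a fold, from 1.20 to 6.18, and for 11 of them it was at least 2-fold. These folds were not tested. The limma tissue fit used the measured values, those below background included, and gave each of the 18 an adjusted p of 1.63e-38 or smaller. On the measured values, those below background included, 30 of 41 subunits were higher by 2-fold or more (17.1% of all genes) and 0 lower (11.8%). The folds given as "at least" hold for the deposited scaling only. Centring each array on its median changed the measured difference of Grik5 from 1.94 to 1.76. Centring each array on its negative controls, a scaling chosen after these values were seen, changed it to 2.91.

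Among the AMPA subunits, the pore-forming units of fast excitatory channels, Gria1 had 9.78, 11.35 and 11.49 in the hippocampus (lowest, median and highest of 25 arrays) against 4.16, 4.89 and 6.30 in PBMC. Its lowest hippocampal value, that of MONW replicate 7, was still above the highest PBMC value, and Gria1 was at least 4.89-fold higher in the hippocampus. Gria3 was at least 3.75-fold and Gria4 at least 1.74-fold higher. Of the kainate subunits, Grik2, which can form channels alone, had 9.02, 9.68 and 9.98 in the hippocampus against 3.61, 4.57 and 5.17 in PBMC, at least 1.55-fold higher. Grik5, which forms channels only together with other kainate subunits, was at least 1.20-fold higher, and Grik4, of the same kind, had no fold above its bound, although neither overlapped between tissues. Grid1, a synapse-organizing relative of these channels, had 8.20, 8.41 and 8.76 in the hippocampus against 4.55, 5.39 and 5.79 in PBMC, with no fold above its bound.

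Of the NMDA subunits, the glutamate-binding Grin2b had 10.74, 11.24 and 11.42 in the hippocampus against 4.98, 5.43 and 6.07 in PBMC. It was at least 4.68-fold higher, Grin2a at least 2.27-fold and the obligatory subunit Grin1 at least 2.18-fold. Grin3a, Grin2c and Grin2d were called higher in the hippocampus and Grin3b was not called (adjusted p = 0.133), but all 4 were below background on every array of both tissues. Among mGlu receptors the group II receptor Grm3, found on neurons and astrocytes, had 8.54, 8.85 and 9.30 in the hippocampus against 2.85, 3.53 and 4.15 in PBMC. The presynaptic group III receptor Grm7 had 8.91, 9.34 and 9.53 in the hippocampus against 4.71, 5.27 and 5.62 in PBMC, at least 1.24-fold higher. Grm5, a postsynaptic receptor coupled to phospholipase C, had 9.39, 9.73 and 9.95 in the hippocampus against 5.61, 6.09 and 6.47 in PBMC, at least 1.64-fold higher. The arrays of the tissues did not overlap for any of these 3 receptors, nor for Grm2 and Grm8, whereas they overlapped for Grm4 and Grm6. Grm3 and Grm2 had no fold above their bound, and Grm4, Grm6 and Grm8 were below background in both tissues.

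Of the GABA-A subunits, the alpha subunit Gabra2 had 10.61, 11.63 and 11.87 in the hippocampus against 4.10, 5.003 and 5.62 in PBMC, at least 6.18-fold higher. Gabra5 was at least 2.87-fold higher, Gabra4 at least 2.12-fold and Gabra3 at least 1.42-fold. The beta subunit Gabrb1, which contributes to the GABA binding site, had 9.31, 10.46 and 10.58 in the hippocampus against 4.18, 4.92 and 5.72 in PBMC, at least 2.64-fold higher, and Gabrb2 was at least 2.25-fold higher. The gamma subunit Gabrg1 had 8.89, 9.54 and 9.99 in the hippocampus against 3.50, 4.04 and 5.09 in PBMC, at least 1.52-fold higher, and Gabrg3 had no fold above its bound. Gabrd, the subunit of extrasynaptic receptors, had 6.81, 7.10 and 8.09 in the hippocampus against 5.51, 5.90 and 6.34 in PBMC, without overlap although it was above background on no array.

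The GABA-B subunit Gabbr2, which couples the receptor to its G protein, had 10.19, 10.43 and 10.73 in the hippocampus against 4.81, 5.62 and 6.13 in PBMC, at least 2.79-fold higher. Its partner Gabbr1, which binds GABA, had 10.98, 11.20 and 11.31 in the hippocampus against 8.37, 8.75 and 9.05 in PBMC. Gabbr1, the one subunit above background on any PBMC array (3 of 25), differed by 2.48 (SE 0.05), a 5.57-fold difference of the measured means. Its PBMC mean of 8.71 lay below the median PBMC threshold of 8.98, and no bound was set for it. This fold is therefore not comparable with those given as "at least".

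Gabra6 and the subunits of the remaining GABA-A classes were above background on no array of either tissue, and their values overlapped between tissues apart from Gabrd. As deposited, Gabrq and Gabrr3 were called higher in the hippocampus; Gabrr3 had 4.45, 4.79 and 5.24 there against 3.87, 4.40 and 4.88 in PBMC. Called lower were Gabre (difference -0.28), Gabrr1 (-0.27), Gabra6 (-0.23) and Gabrp (-0.21), and for Gabrr2 the difference was -0.04 (adjusted p = 0.445). These differences depended on the scaling: the negative control rows themselves differed by -0.98 between hippocampus and PBMC (mean of the array medians), and centring each array on its negative controls, a scaling chosen after these values were seen, adds this amount to every hippocampal difference. The 5 subunits just named that were lower as deposited and Grin3b were then higher in the hippocampus, by 0.69 (Gabre) to 0.94 (Gabrr2), and the differences of Gabrq and Gabrr3 were 1.38 and 1.37 in place of 0.40 and 0.39.

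The hippocampal array of MONW replicate 7 departed from the other 24 in 12 of the 41 subunits, taking a distance of over 3 SDs of those 24 arrays from their mean. This was 29.3% of the subunits against 9.39% of all genes, and on each of the other 24 arrays, set against the remaining 23 without replicate 7, 0 to 2 subunits departed (0.226% to 2.08% of all genes). The array lay below the others in 9 subunits (5.4% of all genes) and above them in 3 (3.99% of all genes). Its values fell outside the range of the other 24 arrays for 21 subunits (23.8% of all genes) and inside it for 20. More of the subunits than of all genes were above background in the hippocampus (23 of 41 against 26%), and shares among genes above background alone are not given. This array was already known to stand apart, and these distances are a description without a test.

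Gabra5, the alpha subunit of tonic inhibition in pyramidal cells, was at 8.47 on replicate 7 against 10.38 to 10.83 on the other 24 arrays, a distance of -2.12 from their mean, or 4.36-fold lower. Gria1, the AMPA subunit most tied to activity-dependent trafficking, was at 9.78 against 11.14 to 11.49, a distance of -1.56 (2.95-fold lower). The next were Gabrb1, at 9.31 against 10.17 to 10.58, and Gabra2, at 10.61 against 11.47 to 11.87. All 4 lay on this array far below the lowest of the other arrays.

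The other subunits that lay below the rest were Grin2a (9.39 against 9.91 to 10.50), Grik4 (8.04 against 8.39 to 9.07), Gabrg1 (8.89 against 9.21 to 9.99), Gabrr2 (6.33 against 6.51 to 7.12) and Grin2b (10.74 against 10.99 to 11.42). Above the rest were Gabrd, at 8.09 on replicate 7 against 6.81 to 7.47, Gabrb2, at 10.77 against 9.86 to 10.49, and Grm3, at 9.30 against 8.54 to 9.05. Grm8, a presynaptic autoreceptor, lay 1.16 above the mean of the others but, with their wider spread (SD 0.39), just inside the distance used, at 2.96 SDs, while Grm3 lay just outside it at 3.01 SDs. The array was therefore not lower in all subunits: within the AMPA family the distance was -1.56 for Gria1 but 0.04 for Gria3 and 0.37 for Gria4, and of the beta subunits Gabrb1 lay below and Gabrb2 above. Grin1, Gabbr1 and Gabbr2 differed from the mean of the others by -0.14, -0.05 and -0.09, inside their range.

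**Figure D2:**
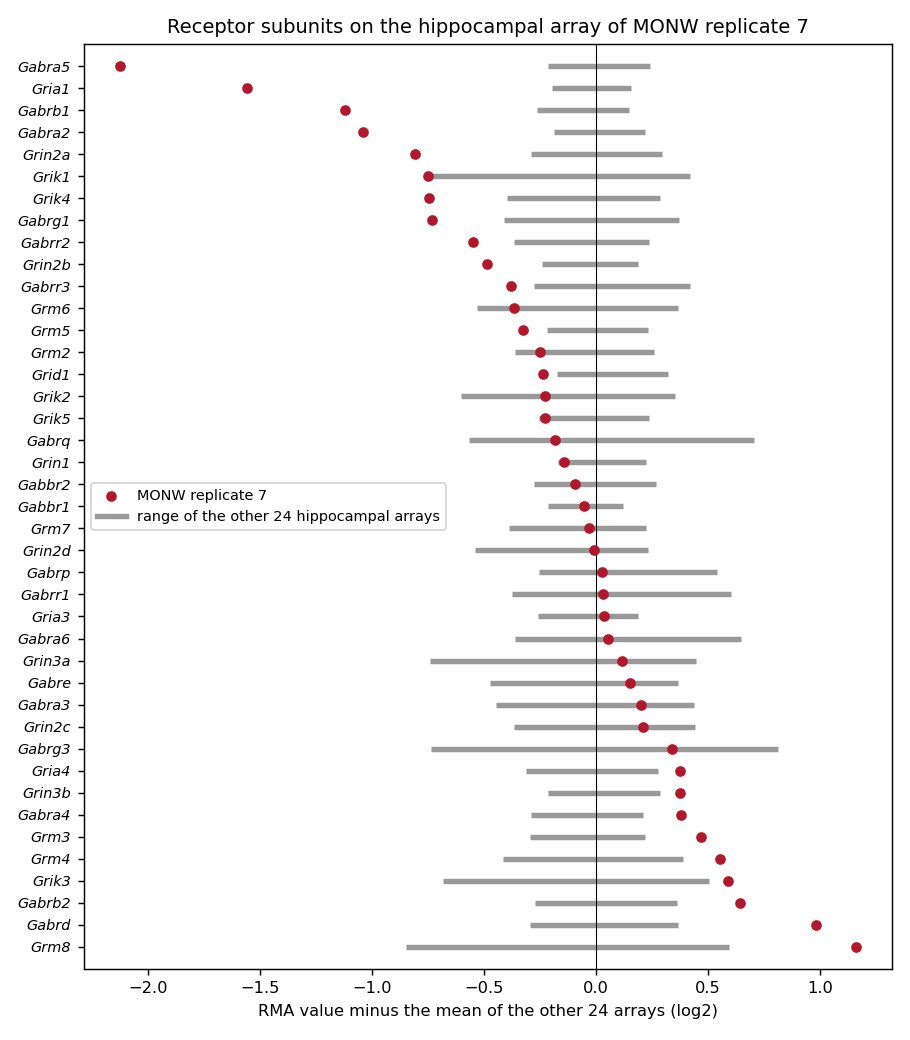
Distance of MONW replicate 7 (red points) from the mean of the other 24 hippocampal arrays for each of the 41 subunits, in log2 units (horizontal axis), with the range of those 24 arrays as grey bars. Gabra5 lies lowest at -2.12 and Grm8 highest at 1.16, and 20 of the 41 points fall inside their bar.

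Several GABA-A genes lie in groups on a chromosome in the RefSeq annotation, and members of some of these groups did not move alike on this array. In the group of Gabrb1, Gabra4, Gabra2 and Gabrg1 on chromosome 14 the distances were -1.12, 0.38, -1.04 and -0.73. Gabra5 and Gabrg3 on chromosome 1 had distances of -2.12 and 0.34, with Gabrg3 above background on 5 of 25 hippocampal arrays. Gabrb2 and Gabra6 on chromosome 10 had 0.64 and 0.05, with Gabra6 above background on none. Gabre, Gabra3 and Gabrq on chromosome X had 0.15, 0.20 and -0.18, all inside the range of the other arrays. Of these, only Gabra3 was above background. RefSeq promoters (GRCr8 build) were matched for 30 of the 41 subunits. The 250 bases before the start of transcription are shown for 4 GABA-A subunits with large departures, to set side by side the sequence of Gabra5 and Gabrb1, low on this array, and of Gabrb2 and Gabrd, high on it. Capitals mark CATGCGC or its reverse complement GCGCATG, the overlapping parts of the palindromic binding motif of the factor NRF-1, in Gabrb1 and Gabrb2, and the GC box GGGCGG or its reverse complement CCGCCC in Gabra5 and Gabrd, with overlapping matches joined.
Gabra5, chr1:117516607-117516856, minus strand: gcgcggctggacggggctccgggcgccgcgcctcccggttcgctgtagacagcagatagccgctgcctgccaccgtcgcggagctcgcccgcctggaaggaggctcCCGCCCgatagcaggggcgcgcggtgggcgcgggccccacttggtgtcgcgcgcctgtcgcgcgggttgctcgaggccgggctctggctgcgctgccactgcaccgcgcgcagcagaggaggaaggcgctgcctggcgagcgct
Gabrb1, chr14:36902894-36903143, minus strand: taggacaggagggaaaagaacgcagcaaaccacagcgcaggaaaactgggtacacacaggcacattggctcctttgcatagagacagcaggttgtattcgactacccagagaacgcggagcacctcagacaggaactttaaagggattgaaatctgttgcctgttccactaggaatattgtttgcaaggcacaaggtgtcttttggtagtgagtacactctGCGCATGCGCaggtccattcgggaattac
Gabrb2, chr10:27439543-27439792, plus strand: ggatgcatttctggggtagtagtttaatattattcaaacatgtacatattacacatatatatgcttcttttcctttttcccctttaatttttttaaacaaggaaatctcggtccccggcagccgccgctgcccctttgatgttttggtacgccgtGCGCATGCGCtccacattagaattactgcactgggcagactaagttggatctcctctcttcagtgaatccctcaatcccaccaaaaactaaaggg
Gabrd, chr5:171252710-171252959, minus strand: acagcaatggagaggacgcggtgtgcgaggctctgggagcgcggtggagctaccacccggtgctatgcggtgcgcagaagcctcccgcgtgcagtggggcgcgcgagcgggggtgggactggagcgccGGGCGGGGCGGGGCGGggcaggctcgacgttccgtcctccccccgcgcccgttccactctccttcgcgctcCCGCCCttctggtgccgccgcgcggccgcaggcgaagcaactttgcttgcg
Searched on both strands, CATGCGC was in 2 of the 30 matched subunit promoters, those of Gabrb1 and Gabrb2, and in 3.26% of all 33469 promoters of this length. In both, the forward and reverse matches overlap to form the whole palindrome, which begins 29 bases before the start in Gabrb1 and 95 bases before it in Gabrb2, the beta subunits that lay on opposite sides of the other arrays on replicate 7. GGGCGG was in 11 of the 30 (36.7%) and in 30.5% of all promoters. Gabra5 and Gabrd, likewise on opposite sides, have GC-rich windows (76.4% and 74% G or C) with 37 and 35 CpG dinucleotides, against 8 each for Gabrb1 and Gabrb2 and a median of 5 over all promoters. These matches are descriptions of the letters in the window.

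Markers of other brain regions moved on the same array. Of 9 measured striatum markers, 8 lay over 3 SDs above the other 24 arrays, and the mean distance over the list was 2.03, against -0.16 to 0.16 on the other arrays. The dopamine receptors Drd1 and Drd2 were higher than the mean of the others by 3.09 and 2.92, and Penk, the enkephalin precursor, by 3.06. Of 10 markers of hippocampal neurons 5 lay over 3 SDs below, with a list mean of -0.91 (other arrays -0.18 to 0.20), among them C1ql2 of dentate granule cells (distance -2.52) and Neurod6 of pyramidal cells (-2.19). Of 7 myelin markers 6 lay above, with a list mean of 0.68 (other arrays -0.22 to 0.28). The list means of choroid plexus (-2.12), thalamus (0.33), astrocyte (-0.04), microglia (0.04), platelet (-0.05) and PBMC (-0.04) markers fell inside the range of the other arrays. Single members of 2 of these lists departed all the same: of 6 thalamus markers 2 lay over 3 SDs below (Lhx2 and Lhx9) and 1 above (Prkcd, distance 2.10), and of 7 astrocyte markers 1 lay below (Slc1a2, distance -0.20). The part of these marker shifts in the subunit values was not tested.

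Genes of proteins that accompany the receptors were also set against the other arrays. Of all genes, 5.4% lay over 3 SDs below them on this array and 3.99% above. Of 15 AMPA and kainate receptor partners, 3 lay over 3 SDs below and 1 above the other arrays: the auxiliary AMPA receptor subunits Shisa6 (distance -2.86) and Cnih2 (-1.26) and the receptor-associated Porcn (-0.68) lay below, and the kainate receptor partner Neto2 (0.77) above. Of 15 postsynaptic scaffold genes 5 lay below and 1 above, of 9 genes of glutamate supply and uptake 3 below and 1 above, among them the vesicular glutamate transporter Slc17a7 (-0.94). Of 12 GABA receptor partners 1 lay above, and of 7 genes of GABA supply and uptake 1 above, with 0 below in both lists. Single genes in lists this short are not read against these shares.

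The 3 groups were compared to ask whether the 60% fat diet, with or without leptin in early life, went with a different level of any subunit. The threshold was an unadjusted p under 0.05 in limma. The comparisons share arrays: MONW enters 2 of them and NW likewise. In the hippocampus of MONW against NW rats, 2 of 41 subunits passed (3.08% of all genes passed), and in MONW-Lep against NW rats 0 passed (2.34%). In MONW-Lep against MONW rats 1 passed (3.1%). After Benjamini-Hochberg adjustment over all 15049 genes 0 subunits and 0 genes passed in any of the 3 comparisons by limma, and the smallest adjusted p of a subunit was 0.999. Without MONW replicate 7, 0 subunits passed in any of them (3.28%, 2.63% and 3.28% of all genes, in the same order of comparisons).

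The kainate subunit Grik5 had 9.06, 9.31 and 9.49 in MONW-Lep rats (lowest, median and highest of 9) and 9.001, 9.16 and 9.34 in MONW rats, against 9.14, 9.30 and 9.45 in NW rats. It averaged 9.29 ± 0.12 in MONW-Lep rats (SD, n = 9), 9.15 ± 0.11 in MONW rats (SD, n = 8) and 9.29 ± 0.11 in NW rats (SD, n = 8). The groups overlapped, with 4 of 8 MONW arrays below the lowest NW array. For MONW minus NW rats the difference was -0.14 (SE 0.06, limma p = 0.0357), with an exact permutation p of 0.028, two-sided. For MONW-Lep minus MONW rats it was 0.14 (SE 0.06, limma p = 0.0317), with an exact permutation p of 0.0302, and for MONW-Lep minus NW rats -0.00061 (SE 0.06). Without MONW replicate 7 these differences were -0.12 (exact p = 0.0538) and 0.12 (exact p = 0.0599). The call against NW was also lost without any 1 of 7 other arrays (NW replicates 1, 3, 6 and 7 and MONW replicates 2, 5 and 6; limma p 0.0517 to 0.0818), and the call for MONW-Lep against MONW without MONW replicate 2 or 5 or MONW-Lep replicate 1 or 10 (limma p 0.0546 to 0.0741).

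The group III receptor Grm4, a presynaptic receptor that limits transmitter release, had 6.73, 7.03 and 7.42 in MONW-Lep rats and 6.82, 7.18 and 7.60 in MONW rats, against 6.63, 6.96 and 7.23 in NW rats. All of these values are below the background threshold of their arrays, and the highest MONW value was that of replicate 7. For MONW minus NW rats the difference was 0.25 (SE 0.11, limma p = 0.0288), with an exact permutation p of 0.0629, and 3 of 8 MONW arrays lay above the highest NW array. Without MONW replicate 7 the difference was 0.20 (exact p = 0.121), and the limma call was also lost without NW replicate 1, 2 or 3 or MONW replicate 2 or 6 (limma p 0.0586 to 0.0721).

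**Figure D3:**
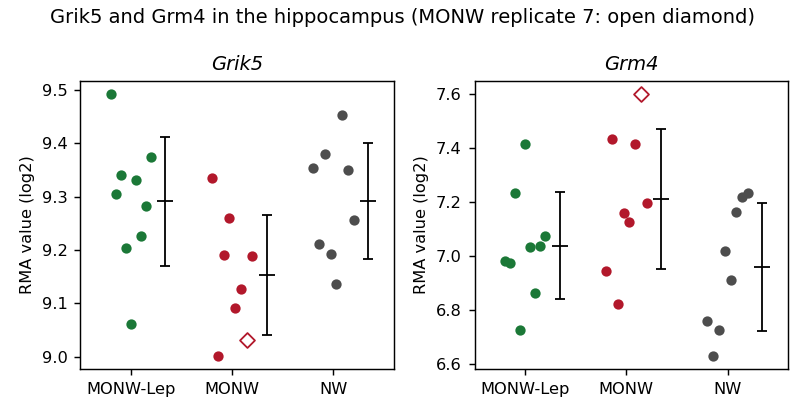
Log2 RMA values of Grik5 (left) and Grm4 (right) in the hippocampus of MONW-Lep (9), MONW (8) and NW (8) rats, 1 point per animal, with the mean and SD beside each group; the vertical axes do not start at 0. The groups overlap in both panels, and MONW replicate 7 (open diamond) has a low Grik5 value (9.03) and the highest Grm4 value (7.60).

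Striatum and myelin markers differed in the same direction between MONW and NW rats: 9 of 9 striatum markers were above 0 with a median difference of 0.23, and 7 of 7 myelin markers with a median of 0.17. Without replicate 7 the striatum markers above 0 were 4 of 9 (median -0.02) and the myelin markers 7 of 7 (median 0.06). Their part in the differences of Grik5 and Grm4 was not tested. MONW-Lep minus MONW gave medians of -0.25 for the striatum and -0.13 for the myelin markers, and -0.06 for each without replicate 7.

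The measured differences between groups were small for the 23 subunits above background. Between MONW and NW rats they ran from -0.18 (Gabra5) to 0.13 (Grm3), with 95% intervals between -0.61 and 0.32 over all 23. Without replicate 7 they ran from -0.12 (Grik5) to 0.14 (Gabrg1), with 21 of the 23 within 0.1 of 0 and intervals between -0.28 and 0.38. Between MONW-Lep and NW rats they ran from -0.05 (Grik4) to 0.11 (Gabra3), with 22 of 23 within 0.1 and intervals between -0.45 and 0.37. Between MONW-Lep and MONW rats they ran from -0.10 (Gria4) to 0.16 (Gria1), with intervals between -0.30 and 0.56. Without replicate 7 these ran from -0.14 (Gabrg1) to 0.12 (Grik5), with intervals between -0.37 and 0.28. Differences within 0.1 are not shown to be absent, given these intervals.

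Replicate 7 set the sign of several of these differences: of the 23 subunits, 8 changed sign between MONW and NW rats when it was left out, and 9 between MONW-Lep and MONW rats. Without it, 21 and 20 of the 23 differences in these comparisons were within 0.1 of 0, where 1 array can turn a sign. The share of all genes that changed sign is not given, so these counts are not read as a trait of the subunits. Gabra5 averaged 10.40 ± 0.78 in MONW rats (SD, n = 8) and 10.58 ± 0.16 in NW rats (SD, n = 8), a difference of -0.18, which was 0.092 without replicate 7 (MONW 10.67 ± 0.09, n = 7). Gria1 averaged 11.16 ± 0.57 in MONW rats against 11.33 ± 0.12 in NW rats, a difference of -0.17, or 0.027 without replicate 7. For Gabrb1 the difference was -0.13 with the array and 0.011 without it, and for Gabra2 -0.094 with it and 0.039 without it. MONW-Lep rats had 10.54 ± 0.11 for Gabra5 and 11.32 ± 0.11 for Gria1 (SD, n = 9). Gabra5 in MONW-Lep minus MONW rats was 0.14 with replicate 7 and -0.13 without it. Without the array the limma p of this difference was 0.0539 and its exact permutation p 0.0178. Gabbr1 was the other subunit whose exact test had an unadjusted p under 0.05 where limma did not: it had 11.15, 11.25 and 11.31 in MONW-Lep rats against 10.98, 11.16 and 11.27 in MONW rats, a difference of 0.087 (SE 0.048, limma p = 0.0796), with an exact permutation p of 0.0238 with replicate 7 and 0.0372 without it. With all arrays, 3 of the 123 exact tests (41 subunits in 3 comparisons) had an unadjusted p under 0.05, the others being those of Grik5. Chance alone gives such a p in about 1 of 20 tests, and these tests share arrays. No share of all genes is given for the exact test, so these p-values are not read as differences between groups.

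**Figure D4:**
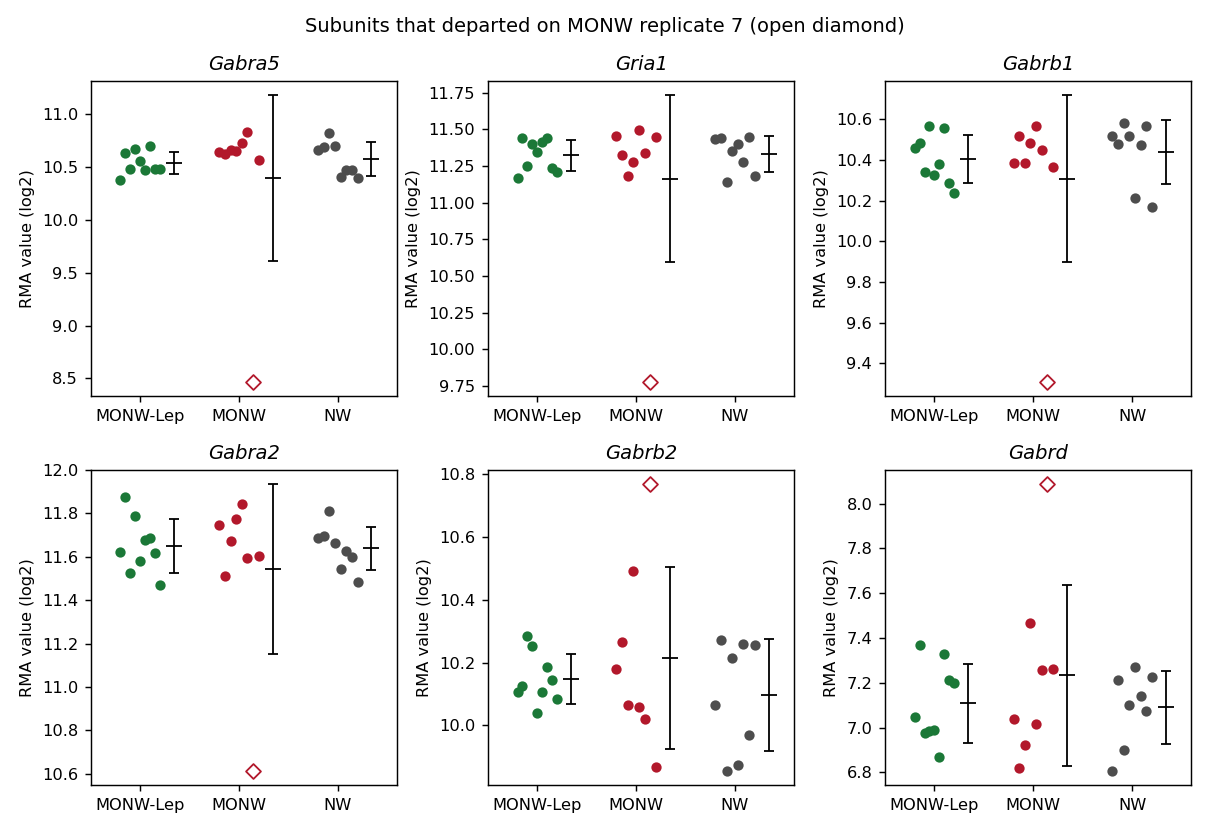
Log2 RMA values of 6 GABA-A and AMPA subunits in the hippocampus of MONW-Lep, MONW and NW rats, 1 point per animal, with the mean and SD beside each group; vertical axes differ and do not start at 0. MONW replicate 7 (open diamond) lies far below the other arrays for Gabra5 (8.47), Gria1 (9.78), Gabrb1 (9.31) and Gabra2 (10.61) and above them for Gabrb2 (10.77) and Gabrd (8.09), while the other arrays of the 3 groups overlap.

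Apart from that array, spread between animals was small. Over the other 24 hippocampal arrays the SD of the 23 subunits above background was 0.08 (Gabbr1) to 0.25 (Grik2), with a median of 0.13, and that of the other 18 was 0.13 (Grin3b) to 0.39 (Grm8).

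Genes that work with the receptors were counted in the same way. Of 15 AMPA and kainate receptor partners, 9 genes of glutamate supply and uptake and 7 of GABA supply and uptake, 0 passed an unadjusted p under 0.05 in any of the 3 hippocampal comparisons. Of 12 GABA receptor partners Kctd8, an auxiliary subunit of GABA-B receptors, passed in MONW minus NW rats with a difference of 0.30 (SE 0.12; 0.21 without replicate 7) and in MONW-Lep minus MONW rats with -0.31 (SE 0.12; -0.22 without replicate 7). Plcl1, a binding partner of GABA-A receptors, passed in MONW-Lep minus MONW rats with -0.19 (SE 0.09). Kctd8 and Plcl1 were above background on no hippocampal array. Of 15 postsynaptic scaffold genes Homer1, which links group I mGlu receptors to the scaffold, passed in MONW-Lep minus MONW rats with -0.18 (SE 0.08). Without replicate 7, Kctd8 in MONW-Lep against MONW rats was the one call left, and 0 of these genes passed after adjustment over all genes.

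**Figure D5:**
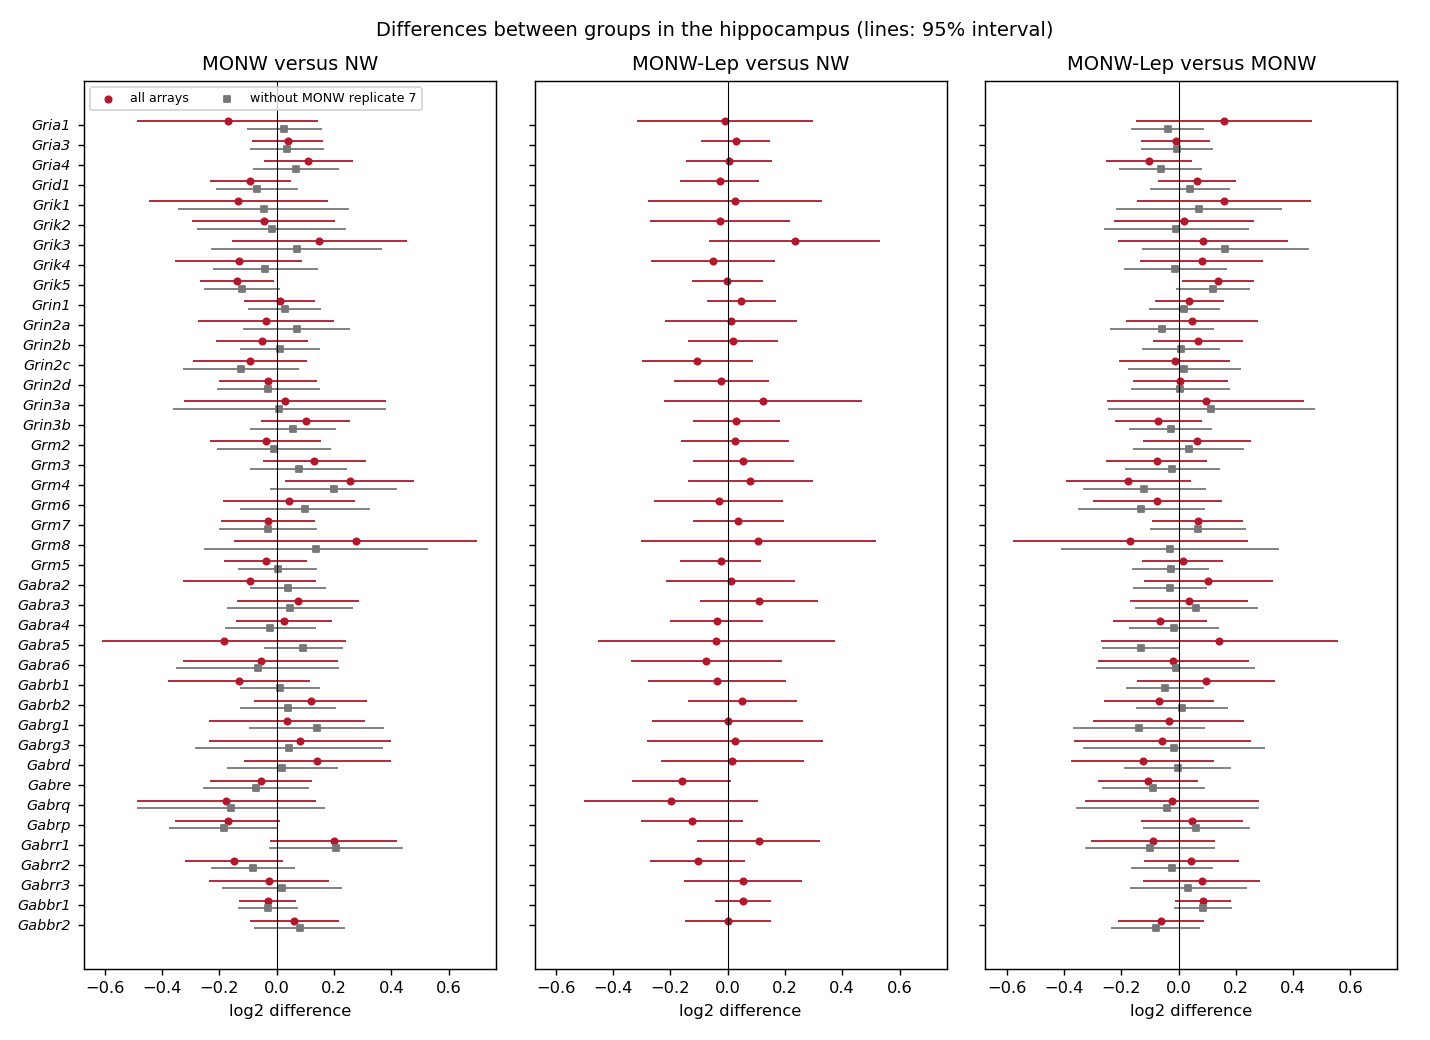
Differences between groups in the hippocampus for each of the 41 subunits (log2, horizontal axis) with 95% intervals from limma, all arrays as red circles and without MONW replicate 7 as grey squares; the middle panel does not compare MONW arrays and shows 1 set of points. Most intervals span 0, and the points of Gabra5, Gria1, Gabrb1 and Gabra2 cross 0 when the array is left out.

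In PBMC, where 40 of the 41 subunits were above background on no array, 2 of 41 passed an unadjusted p under 0.05 in MONW against NW rats (3% of all genes), 1 in MONW-Lep against NW rats (4.75%) and 1 in MONW-Lep against MONW rats (2.45%), with 0 after adjustment. These were Grin2a (0.45 higher in MONW, exact permutation p = 0.0648) and Gabrb1 (-0.31, exact permutation p = 0.09), Gabbr2 (0.36 higher in MONW-Lep than in NW, exact permutation p = 0.0309) and Grm4 (0.22 higher in MONW-Lep than in MONW, exact permutation p = 0.0088). Grik5 differed in PBMC by 0.02 between MONW and NW rats and by -0.03 between MONW-Lep and MONW rats. The difference between the tissues in MONW against NW rats passed an unadjusted p under 0.05 for 4 subunits (3.24% of all genes), Grin2a, Grin2c, Grm4 and Gabrp, and that in MONW-Lep against NW rats for 1 (3.29%), Gabbr2, with 0 after adjustment over all genes in limma. For Grm4 the difference between tissues was 0.41, with MONW minus NW at 0.25 in the hippocampus and -0.15 in PBMC.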

How the data were processed

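RNA of both tissues was hybridized by the authors to Affymetrix Rat Clariom S arrays. The deposited unit is log2: the authors ran RMA (background correction, quantile normalization, probe summary), and R 4.0.4 and limma stand in the submitters' processing notes. Whether the tissues were normalized together and the annotation version are not given in the sources used here. Quantile normalization removes changes shared by all genes, and clusters do not separate isoforms. Of 24871 rows 1683 are controls; the 15049 clusters with 1 symbol were tested. Groups came from the labels. Each tissue's 3 groups were fitted with limma 3.58.1 in R 4.3.3 (lmFit, eBayes, no covariates), and the tissues in 1 fit of 6 groups; the fits were tested on simulated data. Exact two-sided permutation tests used 12870 (8 against 8) or 24310 regroupings (9 against 8), fewer without MONW replicate 7, over 41 subunits in 3 comparisons per tissue, not adjusted. The number of arrays limits the precision, and p-values measure the spread between these animals. No arrays were identical. By rule, values by array are given for subunits past the threshold in the hippocampus, over 3 SDs away on replicate 7, or with their family's largest tissue difference, and partner genes that passed are named; other names and the promoters were picked with the values known. The subunits and lists were chosen with earlier results of these data known. Alternatives left out each array or changed thresholds, normalization, weights or blocks. Plots used matplotlib 3.10.9 (Python 3.11.15).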

Additional observations from a re-analysis of the deposited data

Results flagged for a closer look

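In 123 sets of values (41 subunits in 3 hippocampal groups), the lowest or highest array was screened for a gap to its nearest neighbour that was large against the range of its group (Dixon's 95% value), which chance alone gives in about 1 of 20 sets. The sets share the same arrays and are not independent, so this rate is a scale and not a test. In all, 8 sets had such an array, against 6.15 at that rate. Of these, 6 were the MONW replicate 7 array, lowest of its group in Gabra5 (8.47, the next 10.56), Gabrb1 (9.31, the next 10.37), Gria1 (9.78, the next 11.18), Gabra2 (10.61, the next 11.51), Grin2a (9.39, the next 10.02) and Grin2b (10.74, the next 11.09). The other 2 were in MONW-Lep rats: the AMPA subunit Gria3 was lowest at 10.69 on replicate 1 (the next 10.86), and the NMDA subunit Grin2d was lowest at 5.84 on replicate 10 (the next 6.27), below background. No subunit's group difference differed between tissues after adjustment over all genes.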

How the results depend on the processing

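The counts of subunits past an unadjusted p under 0.05 are small and moved with single arrays. With 1 array left out at a time the count was 0 to 6 for MONW against NW rats. It was 0 to 1 for MONW-Lep against NW and 0 to 2 for MONW-Lep against MONW. The 6 of 41 came without MONW replicate 8 (Gria4, Grik5, Grm3, Grm4, Gabrp and Gabrr2), when 715 of all 15049 genes passed in place of 463 (3.08%). The count for MONW against NW was 4 without NW replicate 4. Among clusters above background alone the counts were 1 (Grik5) and 2 (Grik5 and Gabbr1) for MONW against NW and MONW-Lep against MONW. Of the counts past an unadjusted p in this section, only the 6 has a count of all genes beside it. The others are not read against the general rate. With the 99th percentile of the negative controls, 5 subunits were above background in the hippocampus, and with the 90th percentile 25 were there and 1 in PBMC (Gabbr1). Differences of MONW minus NW turned sign with 1 array left out: they ran from -0.25 to 0.092 for Gabra5, -0.22 to 0.027 for Gria1, -0.17 to 0.011 for Gabrb1, -0.14 to 0.039 for Gabra2, -0.075 to 0.069 for Grin2a and -0.080 to 0.011 for Grin2b, each highest without MONW replicate 7, and from -0.019 to 0.14 for Gabrg1, below 0 without NW replicate 5 or MONW replicate 1, 3, 4 or 5; Grin2a was 0.00058 without NW replicate 3 and 0.035 with array weights. Without MONW replicate 7, Gabra4 (-0.022), Grm5 (0.0032) and Gabrr3 (0.019) turned as well. Calls gained with 1 array left out were, beside those without MONW replicate 8, Gabrp without NW replicate 1, 2 or 4, Gria4 without NW replicate 4 and Gabrr1 without MONW replicate 1 for MONW against NW, Gabre without NW replicate 6 or MONW-Lep replicate 1 or 8 for MONW-Lep against NW, and Gabbr1 without MONW replicate 1, Grm4 without MONW replicate 3 or MONW-Lep replicate 5 and Gria4 without MONW replicate 8 for MONW-Lep against MONW; Gabrr1 also passed after repeated quantile normalization and Gabrp with array weights. The cause was not tested. The 35 subunits higher in the hippocampus than in PBMC were also 35 after quantile normalization of all 50 arrays, median centring, in NW arrays alone, without MONW replicate 7 and with the animal number as a block, 30 at 2-fold or more and 41 with negative-control centring, chosen after seeing the data; the median of all genes moved from -0.10 to -0.27 with each array centred on its median, and lower subunits numbered 4, 5 (quantile) or 6 (centred).

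Same-numbered hippocampal arrays of different groups correlated between -0.35 and 0.34, 13 of 24 pairs over 0.1. Arrays of different numbers are not set beside them, so these values cannot tell whether the numbers pair the animals. With the replicate number as a block the count changed in PBMC only, to 3 for MONW-Lep against NW. Hippocampus and PBMC of the same number correlated between -0.09 and 0.14. The planned use of other clusters of a gene gave no value, since each subunit has 1.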
